A study of Mus musculus with 9 samples.

Results

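The mRNA levels of 8 genes at the centre of Ras signalling were followed across 9 RNA sequencing libraries of mouse neural stem cells and of tumour cells made from them. The genes were the Ras genes Hras and Nras and the Ras GTPase activators Nf1, Rasa1, Rasa2, Rasa3, Rasal2 and Dab2ip, taken from the deposited count table by gene symbol. All 8 were found among its 47729 genes, each under a single identifier, and all 8 passed the filter on low counts. The libraries labelled NF1 (cultures 1, 2 and 3) came from tumour cells derived from neural stem cells, with the genotype shp53, Nf1-/-, CDK4. The LTR libraries (cultures 1, 2 and 3) came from tumour cells of the same origin with the genotype lgT/Ras. The NSC libraries (cultures 1, 3 and 5) came from wild-type primary neural stem cells. All cells trace to the subventricular zone, the germinal layer along the lateral ventricles, and were kept in stem cell culture for up to 10 passages. The series calls its transformed lines GSC1 and GSC2. Which label belongs to which line, which Ras the LTR label means, which exons of Nf1 were removed, and whether cultures of a label descend from separate transformations are points the labels leave unstated.

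Ras proteins are switches that signal when bound to GTP and rest when bound to GDP. Guanine exchange factors load them with GTP, and GTPase activators end the signal by speeding up GTP hydrolysis. Neurofibromin, the product of Nf1, is such an activator and a tumour suppressor whose loss is common in glioma, while active Ras passes its signal to the Raf, MEK and ERK kinases and to PI3K. The activators studied here belong to several families: neurofibromin, the SH2 domain protein encoded by Rasa1, the membrane-binding proteins encoded by Rasa2 and Rasa3, and the related pair encoded by Rasal2 and Dab2ip.

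Total counts ran from 28600479 in LTR 2 to 57231024 in NSC 3. On the first principal component, with 70.6% of the variance of log CPM (counts scaled to library size by the TMM method), NF1 2 stood apart at -21.2. The other NF1 libraries lay at 85.1 and 108.7, the LTR libraries between 84.6 and 92.2, and the NSC libraries between -150.4 and -136.3. The file header gives the NSC libraries another lane number than the tumour libraries, so lane and cell type cannot be told apart. Trp53, the target of the shp53 label, measured 217.0, 151.0 and 221.0 CPM in NF1 1, 2 and 3, against 107.4, 113.8 and 101.4 CPM in NSC 1, 3 and 5, and its mRNA was thus not below the wild-type level. Cdk4 measured 794.8, 392.9 and 1123.7 CPM in NF1 1, 2 and 3 and between 324.8 and 455.7 CPM in NSC, so that NF1 2 lay within the NSC range. In LTR 1, 2 and 3, Trp53 measured 222.8, 281.3 and 254.7 CPM and Cdk4 1015, 935.0 and 1020.1 CPM. The LTR label names neither gene, and both lay higher in every LTR culture than in every NSC culture. Of 8 neural stem cell markers, the summed level was 11147 to 13130 CPM in NF1, 6753 to 12601 CPM in LTR and 12617 to 13295 CPM in NSC. Levels under 1 CPM in every library of a group were seen for 1 marker in NF1 and for 2 in LTR, Slc1a3 among the latter. Tested singly against NSC, 3 were lower and 0 higher in NF1, and 4 lower and 1 higher in LTR (adjusted p under 0.05, edgeR). Over all genes tested, 13.1% were lower and 10.1% higher in NF1, and 20.9% lower and 14.9% higher in LTR. Of the markers of other cells, 5 microglial genes summed to at most 0.512 CPM in NF1, 0.178 CPM in LTR and 2.49 CPM in NSC, and 6 genes of mural cells and fibroblasts to 2.39 to 40.5 CPM in NF1, 3.07 to 7.90 CPM in LTR and 208.4 to 1952 CPM in NSC. Markers of astrocytes (5 genes) summed to 63.7 to 591.3 CPM in NF1, with the highest value in NF1 2, to 57.8 to 102.1 CPM in LTR and to 1287 to 1860 CPM in NSC. Markers of the oligodendrocyte lineage (6 genes) summed to 121.6 to 1184 CPM in NF1, again highest in NF1 2, to 113.2 to 208.0 CPM in LTR and to 2552 to 3222 CPM in NSC, with Sox10 and Mbp under 1 CPM in every library. Markers of neurons (6 genes) summed to 19.4 to 44.2 CPM in NF1, 21.7 to 66.6 CPM in LTR and 215.1 to 294.9 CPM in NSC, and 5 endothelial genes to at most 7.46 CPM in any library. The part of other cells in the differences below was not tested, and in whole cultures fewer cells that hold a transcript and less of it per cell cannot be told apart.

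Against stem cells, Rasa2 mRNA rose and Rasa3 mRNA fell in both tumour lines, Hras rose in the libraries labelled NF1, and Rasal2 and Dab2ip fell in LTR, while Nras lay close to its stem cell level. In the libraries labelled NF1, Hras and Rasa2 rose against NSC and Rasa3 fell, so that 3 of the 8 genes passed, 2 higher and 1 lower. Over all genes tested, 23.1% passed in that comparison, 10.1% higher and 13.1% lower. In LTR, Rasa2 rose and Rasa3, Rasal2 and Dab2ip fell against NSC, so that 4 of the 8 passed, 1 higher and 3 lower. There, 35.9% of all genes passed, 14.9% higher and 20.9% lower. With 8 genes, the counts are near these shares and are no result about the group. They also rest on single cultures: in NF1 none of the 8 passed without NF1 1, NSC 1 or NSC 5 and 6 passed without NF1 2, and in LTR 2 passed without NSC 1. Here and below, passing means an adjusted p under 0.05 in edgeR's quasi-likelihood F test over 15696 genes. The libraries of NF1 and NSC did not overlap for 5 of the 8 genes and for 42.3% of all genes, and those of LTR and NSC for 6 of the 8 and for 59% of all genes.

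**Figure D1:**
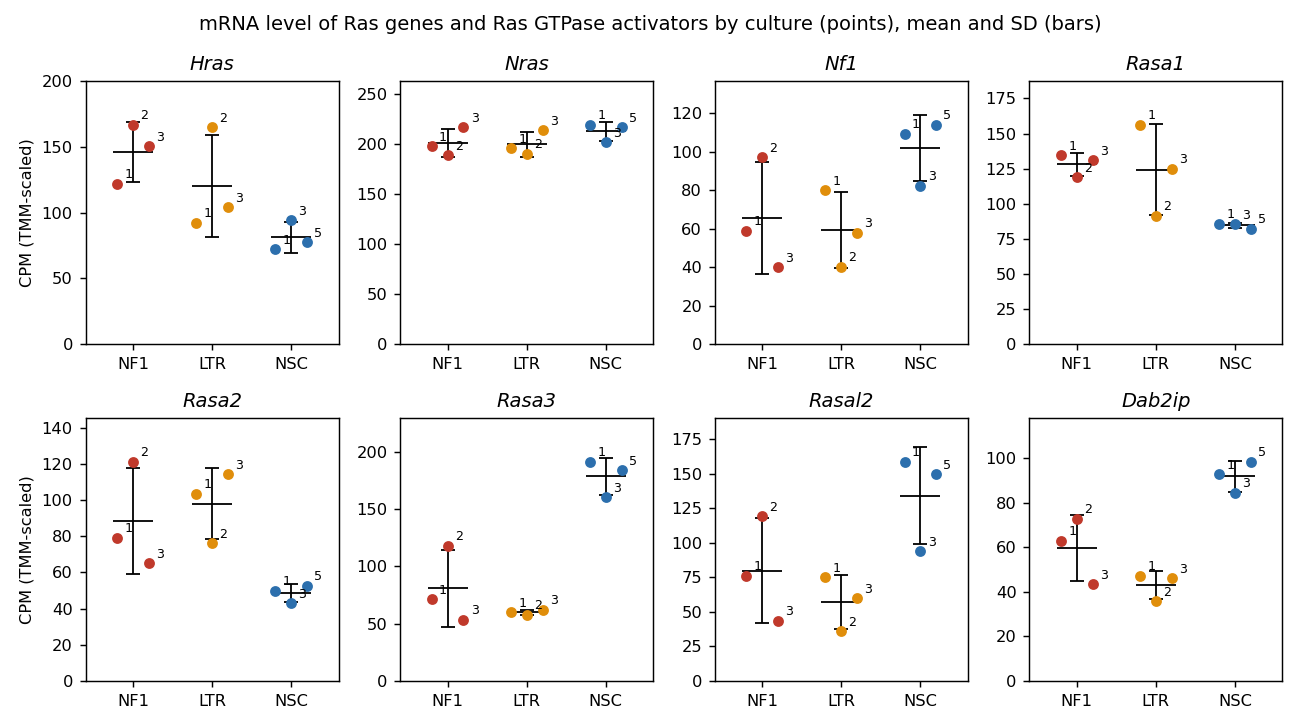
TMM-scaled CPM (vertical axis, from 0) of the 8 genes in each culture (points with the culture number), with the mean and SD of the 3 cultures as bars, for NF1, LTR and NSC from left to right. Rasa3 lies lower in every tumour culture than in every NSC culture, Nras overlaps throughout, and for Hras, Nf1, Rasa2, Rasa3, Rasal2 and Dab2ip the highest NF1 point is culture 2.

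Hras (ENSMUSG00000025499, GRCm38 chromosome 7, 141189105 to 141194005, minus strand, 4 merged exons) encodes a Ras protein anchored to membranes by a farnesyl group and palmitate. It measured 121.9, 166.8 and 150.8 CPM in NF1 1, 2 and 3, 92.3, 164.9 and 104.3 CPM in LTR 1, 2 and 3, and 72.2, 94.4 and 77.4 CPM in NSC 1, 3 and 5. Every NF1 culture lay above every NSC culture, while LTR 1 fell below the highest NSC culture and LTR 2 matched the highest NF1 culture. The rise in NF1 was 1.8-fold (log2 fold change 0.85 ± 0.25 SE, adjusted p = 0.0367). Leaving out NF1 1 (adjusted p = 0.0562), NF1 3 (0.0888), NSC 1 (0.133) or NSC 5 (0.119) ended this call. In LTR the difference was 0.57 ± 0.25 on the log2 scale and did not pass (adjusted p = 0.0991). Whether transcripts of the Ras that the LTR label names are counted under Hras or Nras cannot be told from these counts.

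Nras (ENSMUSG00000027852, chromosome 3, 103058285 to 103067914, plus strand, 8 merged exons), the other Ras gene counted here, was the steadiest of the 8. Its level was 198.3, 189.2 and 217.1 CPM in NF1 1, 2 and 3, 196.0, 190.5 and 214.3 CPM in LTR 1, 2 and 3, and 219.4, 202.0 and 217.2 CPM in NSC 1, 3 and 5. The 3 groups overlapped, and within a group the highest culture exceeded the lowest by at most 1.15 times. The log2 difference from NSC was -0.08 (95% interval -0.42 to 0.27) in NF1 (adjusted p = 0.736) and -0.09 (-0.43 to 0.26) in LTR (adjusted p = 0.674). Falls of more than 0.43 and rises of more than 0.27 on the log2 scale lay outside both intervals.

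Because the Ras genes differed in this way while sharing a protein family, the stretches just before their transcription starts are shown, as RefSeq places the starts on GRCm38.p6. Each runs 5′ to 3′ on the strand of the gene and ends where the GENCODE M21 gene begins. Capitals mark the GC box GGGCGG, the CCAAT box and the E-box CACGTG, on either strand.
Hras (chr7:141194006-141194254, minus strand): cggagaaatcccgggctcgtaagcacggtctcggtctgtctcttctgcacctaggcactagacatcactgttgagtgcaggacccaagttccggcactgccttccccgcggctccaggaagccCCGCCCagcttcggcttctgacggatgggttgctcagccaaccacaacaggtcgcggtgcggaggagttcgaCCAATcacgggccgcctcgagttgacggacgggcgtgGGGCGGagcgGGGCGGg
Nras (chr3:103058035-103058284, plus strand): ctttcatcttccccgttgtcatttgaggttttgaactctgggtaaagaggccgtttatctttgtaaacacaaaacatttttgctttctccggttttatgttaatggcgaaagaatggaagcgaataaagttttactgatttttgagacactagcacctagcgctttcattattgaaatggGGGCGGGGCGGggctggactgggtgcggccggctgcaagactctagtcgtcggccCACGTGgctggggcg
The Hras stretch of 249 bases held 65.5% G and C, with 3 GC boxes and 1 CCAAT box. The Nras stretch of 250 bases held 48.4% G and C, 2 GC boxes that share a G, 1 E-box and no CCAAT. The median over 32851 RefSeq promoters was 52.4% G and C. A GC box occurs in 32.7% of those promoters, CCAAT in 33.8% and CACGTG in 6.02%. The letters CCGGAAG of the Ets motif (6.91% of promoters) and TGACTCA of the AP-1 motif (4.46%) were also searched on both strands and do not occur in either stretch. These matches describe letters in a window and carry no measurement of binding.

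Per kb of merged exon, the only scale on which levels of different genes are compared here, Hras averaged 39.2 ± 6.1 CPM per kb in NF1, 32.3 ± 10.4 in LTR and 21.8 ± 3.1 in NSC (SD, n = 3 each). Nras averaged 37.8 ± 2.7 CPM per kb in NF1, 37.6 ± 2.3 in LTR and 39.9 ± 1.8 in NSC. Of the summed Hras and Nras level, Hras made up 46.8%, 55.7% and 49.8% in NF1 1, 2 and 3, 40.2%, 55.3% and 41.0% in LTR 1, 2 and 3, and 32.0%, 40.0% and 33.7% in NSC 1, 3 and 5. The Hras share was thus higher in every tumour culture than in every NSC culture, though LTR 1 exceeded NSC 3 by little. The merged length counts every annotated exon of a gene, 3.73 kb for Hras and 5.33 kb for Nras, whichever transcripts the cells use. Shares, sums and orders across genes, here and below, depend on that length. Which transcripts the cells used was not tested.

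Nf1 (ENSMUSG00000020716, chromosome 11, 79339693 to 79581612, plus strand, 60 merged exons) is the gene that the NF1 label names as deleted. It measured 59.0, 97.2 and 40.1 CPM in NF1 1, 2 and 3, 80.0, 40.3 and 58.0 CPM in LTR 1, 2 and 3, and 109.6, 82.5 and 114.0 CPM in NSC 1, 3 and 5. NF1 2 lay between NSC 3 and NSC 1, the other NF1 cultures lay below every NSC culture, and so did all LTR cultures, whose label names no change of Nf1. The difference from NSC was -0.64 ± 0.35 on the log2 scale in NF1 (adjusted p = 0.205) and -0.78 ± 0.35 in LTR (adjusted p = 0.107). Without NF1 2 both passed, at -1.03 (adjusted p = 0.0248) in NF1 and -0.77 (adjusted p = 0.0412) in LTR. The count covers all exons together, so transcripts from an allele that lacks some exons are counted too, and the level alone does not check the label. The libraries are therefore called by their label.

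Several genes lie inside Nf1 on the opposite strand, and the library kit does not keep the strand. Omg, a myelin glycoprotein gene in an Nf1 intron, had 0, 1 and 0 counts in NF1 1, 2 and 3, 1, 0 and 2 counts in LTR 1, 2 and 3, and 183, 163 and 100 counts in NSC 1, 3 and 5. Evi2a had 45, 136 and 117 counts in NF1 1, 2 and 3, 165, 65 and 126 in LTR 1, 2 and 3, and 4, 19 and 0 in NSC 1, 3 and 5. Omg was thus nearly absent from the tumour cultures and Evi2a lowest in stem cells, in libraries with 1056 to 4571 Nf1 counts. Neither shares an exon base with Nf1 in GENCODE M21.

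Rasa1 and Rasa2 were the activators with higher levels in tumour cells. Rasa2 (ENSMUSG00000032413, chromosome 9, 96539300 to 96631617, minus strand), an activator that binds membrane phospholipids, measured 79.1, 121.3 and 65.2 CPM in NF1 1, 2 and 3, 103.4, 76.1 and 114.3 CPM in LTR 1, 2 and 3, and 49.9, 43.0 and 52.7 CPM in NSC 1, 3 and 5. Every tumour culture exceeded every NSC culture. Rasa2 rose 1.82-fold in NF1 (0.87 ± 0.26, adjusted p = 0.0392) and 2.02-fold in LTR (1.01 ± 0.26, adjusted p = 0.0158). The NF1 call passed in 9 of 20 alternative analyses, the fewest among the calls of the 8 genes. It was lost without NSC 1, NSC 3, NSC 5, LTR 1, NF1 1 or NF1 2 (adjusted p = 0.0508 to 0.108), and the LTR call without NSC 1 (adjusted p = 0.0523). With each library's trend over GC content taken out, the difference was 0.65 (adjusted p = 0.114) in NF1 and 0.78 (adjusted p = 0.0508) in LTR, and Rasa2 exons hold 40.2% G and C.

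Rasa1 (ENSMUSG00000021549, chromosome 13, 85214780 to 85289130, minus strand) encodes the activator that docks on phosphorylated receptors through its SH2 domains. It measured 134.7, 119.1 and 130.8 CPM in NF1 1, 2 and 3, 156.1, 91.6 and 125.1 CPM in LTR 1, 2 and 3, and 85.7, 85.6 and 82.3 CPM in NSC 1, 3 and 5. Every tumour culture lay above the narrow NSC range, with LTR 2 the nearest to it. The difference from NSC was 0.60 ± 0.20 on the log2 scale in NF1 (adjusted p = 0.0590) and 0.56 ± 0.20 in LTR (adjusted p = 0.0577), just short of the threshold. Without LTR 2 both passed (adjusted p = 0.0211 in NF1 and 0.0157 in LTR), as they did without NF1 2 (0.0352 in NF1 and 0.0408 in LTR), and the NF1 difference also without LTR 1 (0.0473). Rasa1 shares 12 exon bases with Ccnh on the other strand, a gene with 1000 to 2745 counts per library.

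Rasa3 showed the widest difference of the 8 genes. It encodes an activator that binds inositol phosphates and acts on Rap1 as well as on Ras (ENSMUSG00000031453, chromosome 8, 13566948 to 13677603, minus strand, 25 merged exons). The level was 71.3, 118.3 and 53.3 CPM in NF1 1, 2 and 3, 59.8, 57.8 and 62.3 CPM in LTR 1, 2 and 3, and 191.6, 160.4 and 184.2 CPM in NSC 1, 3 and 5. The LTR cultures agreed closely, NF1 2 stood between them and the stem cells, and no tumour culture reached the NSC range. Rasa3 fell 2.98-fold in LTR (-1.58 ± 0.27, adjusted p = 0.00353) and 2.21-fold in NF1 (-1.14 ± 0.27, adjusted p = 0.0165). The LTR call passed in 20 of 20 alternative analyses. Leaving out NF1 1 (adjusted p = 0.0670), NSC 1 (0.0593) or NSC 5 (0.0540) ended the NF1 call. The stretch before its RefSeq start is shown for comparison with the Ras genes, with the same capitals.
Rasa3 (chr8:13677604-13677837, minus strand): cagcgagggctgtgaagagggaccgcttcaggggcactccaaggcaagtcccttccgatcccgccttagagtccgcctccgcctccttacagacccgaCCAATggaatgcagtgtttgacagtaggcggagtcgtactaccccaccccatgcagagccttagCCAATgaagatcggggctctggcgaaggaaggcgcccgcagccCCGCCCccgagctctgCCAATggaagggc
In these 234 bases the CCAAT letters occur 3 times and the GC box 1 time, at 63.2% G and C, and no match to the other motifs was found.

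Rasal2 and Dab2ip encode closely related activators, both described as tumour suppressors in human cancers. Rasal2 (ENSMUSG00000070565, chromosome 1, 157135182 to 157412595, minus strand) measured 76.2, 119.3 and 43.6 CPM in NF1 1, 2 and 3, 74.9, 35.9 and 59.8 CPM in LTR 1, 2 and 3, and 158.6, 93.6 and 149.4 CPM in NSC 1, 3 and 5. All LTR cultures lay below all NSC cultures, while NF1 2 lay above NSC 3. Rasal2 fell 2.35-fold in LTR (-1.23 ± 0.40, adjusted p = 0.0373), and the difference in NF1 was -0.75 ± 0.39 (adjusted p = 0.192). The LTR call was lost without NSC 1, NSC 5, LTR 2, LTR 3 or NF1 1 (adjusted p = 0.0536 to 0.126), and the NF1 difference passed without NF1 2 (-1.15, adjusted p = 0.0336). A pseudogene on the other strand, 2810025M15Rik, shares 244 exon bases with Rasal2 and ran the opposite way, with 2999, 998 and 3622 counts in NF1 1, 2 and 3, 2665, 4474 and 2782 in LTR 1, 2 and 3, and 876, 2320 and 920 in NSC 1, 3 and 5.

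Dab2ip (ENSMUSG00000026883, chromosome 2, 35558266 to 35730994, plus strand) measured 62.9, 72.7 and 43.3 CPM in NF1 1, 2 and 3, 47.1, 35.7 and 46.1 CPM in LTR 1, 2 and 3, and 92.6, 84.3 and 98.4 CPM in NSC 1, 3 and 5. No tumour culture reached the NSC range. Dab2ip fell 2.13-fold in LTR (-1.09 ± 0.22, adjusted p = 0.00669), a call that passed in 20 of 20 alternative analyses. In NF1 the difference was -0.62 ± 0.22 and did not pass (adjusted p = 0.0701), but it passed without NF1 2 (-0.78, adjusted p = 0.0196).

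**Figure D2:**
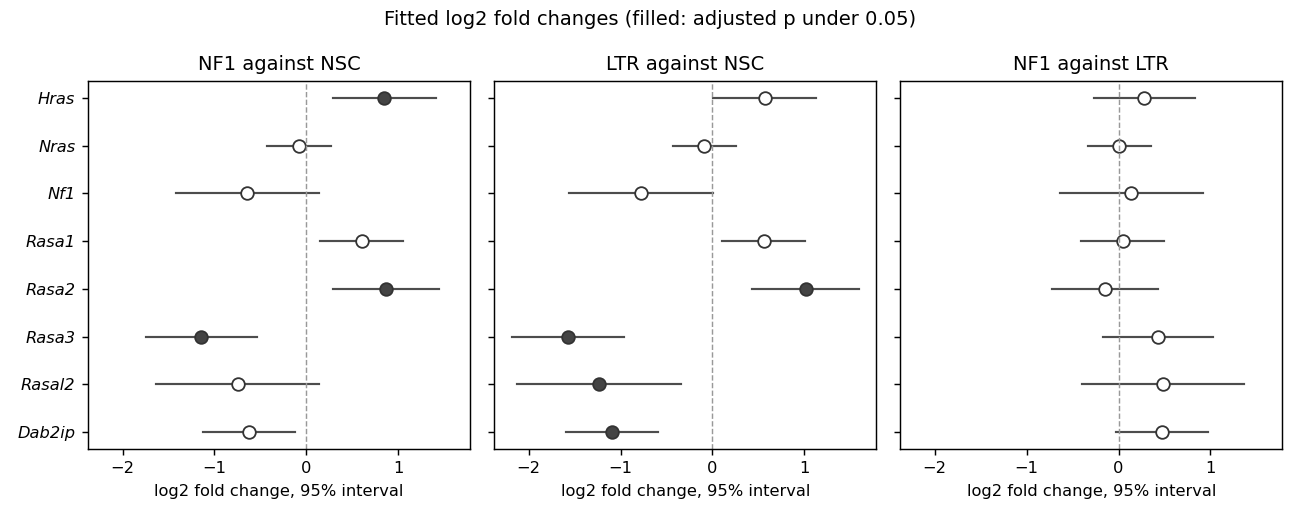
Fitted log2 fold changes (points) with 95% intervals (lines) of the 8 genes for NF1 against NSC, LTR against NSC and NF1 against LTR; filled points passed at an adjusted p under 0.05. Rasa2 and Rasa3 are filled in both comparisons with NSC, and no point is filled for NF1 against LTR.

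The tumour lines were then set against each other. Their labels differ in all parts, shp53, Nf1-/- and CDK4 in NF1 and lgT/Ras in LTR. Nf1 loss and Ras therefore cannot be told apart from the other changes in this comparison. None of the 8 genes passed in NF1 against LTR, and for none did the 3 cultures of each line stay apart. Over all genes, 0% passed in edgeR, with 1596 genes at an unadjusted p under 0.05, and the libraries did not overlap for 12.5% of genes. DESeq2 called 330 genes and limma-voom 1, with none of the 8 among them. The widest differences were Rasal2 at 0.49 (95% interval -0.40 to 1.37), Dab2ip at 0.47 (-0.03 to 0.97) and Rasa3 at 0.43 (-0.17 to 1.03) on the log2 scale, with adjusted p = 0.722 for Rasal2, 0.516 for Dab2ip and 0.632 for Rasa3. Nras was the most tightly bounded, at 0.01 (-0.34 to 0.35). The intervals of Hras, Nf1, Rasa1 and Rasa2 spanned 0 as well, the widest of them that of Nf1 (-0.64 to 0.92), so a moderate difference between the lines could not be seen with these cultures.

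Ranked by level per kb of exon, the order of the 8 genes differed between cell types. In NF1 the order was Hras (39.2 CPM per kb), Nras (37.8), Rasa1 (17.5), Rasa3 (15.9), Dab2ip (7.13), Rasal2 (5.80), Rasa2 (5.58) and Nf1 (4.13). Neighbours in that order overlapped between cultures except at the steps from Nras to Rasa1 and from Rasa3 to Dab2ip. In LTR the order was Nras (37.6), Hras (32.3), Rasa1 (17.0), Rasa3 (11.8), Rasa2 (6.18), Dab2ip (5.14), Rasal2 (4.14) and Nf1 (3.75), with clear steps only from Hras to Rasa1, Rasa1 to Rasa3 and Rasa3 to Rasa2. In NSC it was Nras (39.9), Rasa3 (35.1), Hras (21.8), Rasa1 (11.5), Dab2ip (11.0), Rasal2 (9.74), Nf1 (6.44) and Rasa2 (3.06). There Nras, Rasa3 and Hras were each clear of the next, Rasa1, Dab2ip, Rasal2 and Nf1 overlapped as neighbours, and Rasa2 was clear below Nf1.

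The 6 activators together reached 54.2, 70.6 and 43.3 CPM per kb in NF1 1, 2 and 3, 55.7, 38.1 and 50.05 in LTR 1, 2 and 3, and 82.0, 68.0 and 80.5 in NSC 1, 3 and 5. NF1 2 lay above NSC 3 and all other tumour cultures lay below the NSC range. Rasa3 made up 24.1% to 32.9% of this sum in NF1, 21.1% to 29.8% in LTR and 44.9% to 46.3% in NSC. Rasa1 made up 23.0% to 41.2% in NF1, 32.9% to 38.3% in LTR and 14.0% to 17.2% in NSC. Per kb, the leading activator transcript was thus Rasa3 in every NSC culture and in NF1 2. It was Rasa1 in every LTR culture and in NF1 1 and NF1 3. Per kb of merged exon, neurofibromin mRNA was a small part everywhere. It made up 5.84% to 8.68% of the sum in NF1, 6.67% to 9.06% in LTR and 7.66% to 8.93% in NSC. These sums are of transcripts and say nothing of protein or activity.

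**Figure D3:**
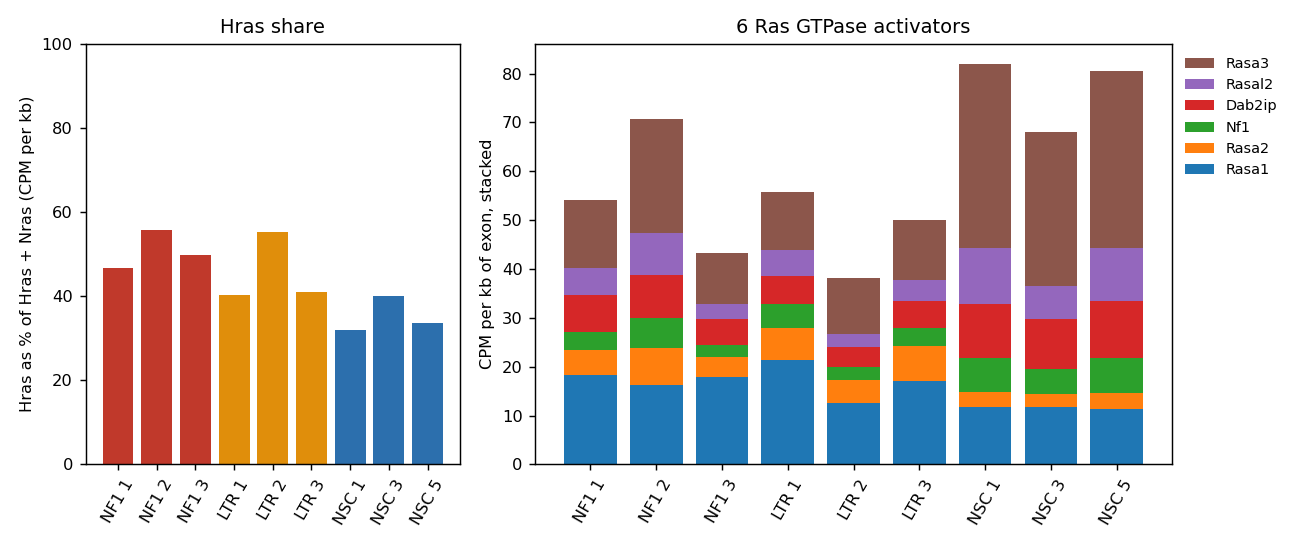
Left, Hras as a percent of the summed Hras and Nras level (CPM per kb of exon) in each library; right, stacked levels of the 6 Ras GTPase activators in CPM per kb of exon, with NF1, LTR and NSC libraries from left to right. The Rasa3 block makes up 44.9% to 46.3% of the activator sum in NSC and at most 32.9% in any tumour library.

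Some of the spread between cultures ran with transcript length. Over 1407 tested genes with more than 10 kb of exon, the median deviation from the group mean on the log2 scale was 0.01, 0.35 and -0.36 in NF1 1, 2 and 3, 0.19, -0.27 and 0.08 in LTR 1, 2 and 3, and 0.06, -0.13 and 0.07 in NSC 1, 3 and 5. Nf1 (15.85 kb), Rasa2 (15.86 kb) and Rasal2 (13.74 kb) are such genes. In the NF1 group each was highest in NF1 2 and lowest in NF1 3, and in the LTR group each was lowest in LTR 2, the order that long genes took in general. The other 5 members have 3.73 to 8.37 kb, and of these Rasa3 and Dab2ip took the same order in both groups, while Rasa1 and Nras were lowest in LTR 2 and in NF1 2, and Hras was highest in both. The part of this trend in the values above was not tested.

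Genes with the most similar profile over the 9 libraries were looked up for each member among 9612 tested genes of at least 10 CPM on average, by the root mean square difference of centred log2 CPM. Nearest to Hras were Akr1b3 (0.08), Cmas (0.08) and Atp6v1e1 (0.09), against a spread of Hras about its own mean of 0.43. Nearest to Nf1 were Mkl2 (0.08) and Akap9 (0.08), and nearest to Rasa3 were Thra (0.12), Cdh2 (0.12) and Trak1 (0.12). Rasa2 had Vps50 (0.16), Abcc1 (0.18) and Uba6 (0.19), Rasal2 had Hivep1 (0.13), Mycbp2 (0.14) and Chd9 (0.15), and Dab2ip had Mtmr9 (0.10), Phka1 (0.11) and Gnai2 (0.11). Rasa1 had Zfp65 (0.09), B230219D22Rik (0.10) and Ttc8 (0.10), and Nras, which hardly varied, had Cryz (0.07), 1110051M20Rik (0.08) and AI597479 (0.10). Among the members, the closest pair was Nf1 and Rasal2 (0.22). Rasal2 ranked number 143 from Nf1 and Nf1 number 45 from Rasal2, so many genes outside the group were closer.

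Around these genes, 65 others of the Ras pathway were listed by role, and 57 had enough counts to be tested. Against NSC, 7 rose and 5 fell in NF1, and 9 rose and 12 fell in LTR, counts that include Rasgrf1 and, in LTR, Rasgrp1, which passed the filter on low counts through NSC alone. Without single libraries the NF1 count of 12 became 5 (NSC 1), 6 (NF1 1), 7 (NSC 5) or 27 (NF1 2), and the LTR count of 21 became 9 (NSC 1) or 13 (LTR 3). None passed in NF1 against LTR. The shares of all genes given above are the scale for these counts. The median log2 fold change of all tested genes was 0.004 in NF1 and -0.06 in LTR.

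**Figure D4:**
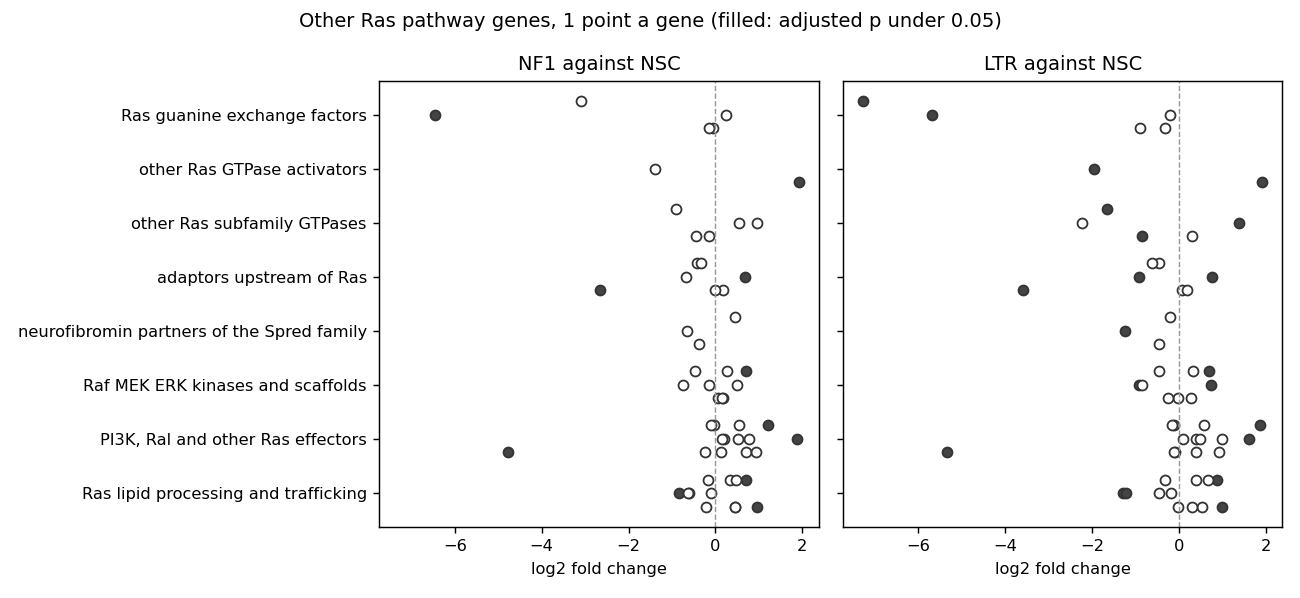
Log2 fold changes of the tested genes of 8 Ras pathway lists (1 point a gene, offset vertically for legibility) for NF1 against NSC and LTR against NSC; filled points passed at an adjusted p under 0.05. The points below -4 are Plce1, Rasgrf1 and Rasgrp1; the last of these, in LTR, and Rasgrf1 rest on so few tumour counts that their position depends on the fit.

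Upstream of Ras, adaptors and exchange factors couple receptors to it. Gab1, a docking protein of receptor tyrosine kinases, measured 12.0, 26.0 and 7.5 CPM in NF1 1, 2 and 3, 7.2, 9.1 and 7.5 CPM in LTR 1, 2 and 3, and 111.5, 62.6 and 113.5 CPM in NSC 1, 3 and 5. It fell 6.31-fold in NF1 (adjusted p = 0.00431) and 12.0-fold in LTR (adjusted p = 0.00131), in all 20 alternatives. The adaptor gene Shc1 rose in both lines (0.69 ± 0.21, adjusted p = 0.0463 in NF1, and 0.77 ± 0.21, adjusted p = 0.0217 in LTR), and Gab2, a relative of Gab1, fell in LTR (-0.91 ± 0.29, adjusted p = 0.0371). The Shc1 call was lost in LTR without NSC 1 or LTR 1 (adjusted p = 0.0583 to 0.0615) and in NF1 without any library but LTR 2 and NF1 2 (0.0573 to 0.156), and the Gab2 call without any library but NF1 2 and NF1 3 (0.0521 to 0.117), while Gab2 passed in NF1 without NF1 2 (0.00685, against 0.118 with it). In all, 1 of 7 adaptors rose and 1 fell in NF1, and 1 rose and 2 fell in LTR. Ptpn11, the phosphatase SHP2, was the most abundant that did not pass, at 186.6 ± 41.1 CPM in NF1, 182.0 ± 24.2 in LTR and 249.8 ± 16.9 in NSC.

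Of 8 exchange factors, 5 were tested. Rasgrf1, a calcium-responsive exchange factor of neurons, had 0, 5 and 1 counts in NF1 1, 2 and 3, 0, 6 and 4 counts in LTR 1, 2 and 3, and 278, 102 and 323 counts in NSC 1, 3 and 5. Rasgrp1, activated by diacylglycerol, had 1, 23 and 0 counts in NF1 1, 2 and 3, 1, 0 and 0 counts in LTR 1, 2 and 3, and 106, 29 and 122 counts in NSC 1, 3 and 5. Both entered the test through their stem cell counts, so their lower tumour counts are given as a description, and of the 5 only these were called lower, Rasgrf1 in both lines and Rasgrp1 in LTR. Sos1, the exchange factor recruited by Grb2, did not pass, at 73.4, 88.6 and 53.6 CPM in NF1 1, 2 and 3, 68.5, 44.8 and 66.7 CPM in LTR 1, 2 and 3, and 75.9, 69.4 and 79.97 CPM in NSC 1, 3 and 5.

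Among the remaining activators, Rasa4, a calcium-responsive relative of Rasa2 and Rasa3, rose at a low level, to 7.75 ± 1.74 CPM in NF1 (adjusted p = 0.0247) and 7.71 ± 0.83 in LTR (adjusted p = 0.0175), against 2.04 ± 1.21 CPM in NSC. The Rasa4 calls were lost without NSC 1 (adjusted p = 0.0705 in NF1 and 0.0506 in LTR) and, in NF1, without NF1 1 or NF1 3 (0.0731 and 0.0526). The Spred proteins bring neurofibromin to the membrane. Of 3 Spred genes, none passed in NF1 and Spred2 fell in LTR, to 63.5 ± 16.4 CPM against 150.0 ± 34.9 in NSC (-1.24 ± 0.35, adjusted p = 0.0219). In NF1 Spred2 measured 81.7, 143.7 and 59.6 CPM in cultures 1, 2 and 3 (adjusted p = 0.186, and 0.0158 without NF1 2), and the LTR call was lost without NSC 1, NSC 3, LTR 2 or LTR 3 (0.0504 to 0.0801). Spred1 measured 233.7 ± 44.1 CPM in NF1, 220.2 ± 40.5 in LTR and 301.9 ± 52.9 in NSC and did not pass.

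Among other GTPases of the Ras subfamily, none of 5 tested passed in NF1, and in LTR Rras2 rose (1.39 ± 0.42, adjusted p = 0.031) while Mras (-1.66 ± 0.43, adjusted p = 0.0169) and Rit1 (-0.85 ± 0.26, adjusted p = 0.0309) fell. Mras, which works with Shoc2 in Raf activation, measured 22.1, 55.7 and 15.1 CPM in NF1 1, 2 and 3, 20.96, 19.8 and 14.4 CPM in LTR 1, 2 and 3, and 63.9, 49.7 and 61.2 CPM in NSC 1, 3 and 5. NF1 2 fell inside the span of the stem cells, the other NF1 cultures beside LTR. Without NF1 2 all of these passed in NF1 as well (adjusted p = 0.0136 for Rras2, 0.00139 for Mras and 0.0203 for Rit1). Mras lost its LTR call without NSC 1 (adjusted p = 0.0516) or LTR 3 (0.0651), Rras2 without NSC 1, NSC 3 or LTR 2 (0.0756 to 0.0928), and Rit1 without any library of NSC or LTR (0.0607 to 0.138). Rras did not pass, at 27.0 ± 11.6 CPM in NF1, 36.7 ± 7.6 in LTR and 29.9 ± 8.2 in NSC.

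Downstream of Ras, 9 genes of the kinase cascade were tested, of which 1 passed in NF1 and 3 in LTR. Shoc2 rose in NF1 (0.70 ± 0.19, adjusted p = 0.0297), and in LTR Shoc2 (0.70 ± 0.19, adjusted p = 0.0205) and Map2k2, which encodes MEK2, rose (0.75 ± 0.18, adjusted p = 0.0111) while Braf fell (-0.91 ± 0.31, adjusted p = 0.0475). Calls were lost for Map2k2 without NSC 1 or NSC 5 (adjusted p = 0.0526 to 0.0539), for Shoc2 in LTR without NSC 1, NSC 5, LTR 1 or LTR 3 (0.0538 to 0.0770), for Shoc2 in NF1 without any NSC library, NF1 1 or NF1 3 (0.0506 to 0.108), and for Braf without NSC 1, NSC 5, LTR 2, LTR 3, NF1 1 or NF1 3 (0.0581 to 0.182). Map2k2 passed in NF1 without NSC 3, LTR 2 or NF1 2 (0.0319 to 0.0495, against 0.0633 with all libraries), and Braf without NSC 3 (0.0452, against 0.116).

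Among the other effectors, Plce1, the phospholipase C that Ras binds, measured 2.81, 5.63 and 1.40 CPM in NF1 1, 2 and 3, 3.65, 1.45 and 1.58 CPM in LTR 1, 2 and 3, and 117.7, 40.9 and 113.5 CPM in NSC 1, 3 and 5. It fell 27.6-fold in NF1 (adjusted p = 0.0022) and 40.5-fold in LTR (adjusted p = 0.00128). Rin1, an effector that couples Ras to endocytosis through Rab5, rose 3.71-fold in NF1 (adjusted p = 0.00336) and 3.09-fold in LTR (adjusted p = 0.00415). It measured 92.1 ± 9.5 CPM in NF1, 76.5 ± 26.0 in LTR and 24.8 ± 5.8 in NSC. The Plce1 and Rin1 calls passed in 20 of 20 alternatives in both lines. Pik3cd, a PI3K catalytic subunit best known from leukocytes, rose at low levels, to 3.49 ± 1.2 CPM in NF1 (adjusted p = 0.0473) and 5.48 ± 0.59 in LTR (adjusted p = 0.00715), against 1.498 ± 0.23 CPM in NSC, and its NF1 call was lost without any library but LTR 2 and NF1 2 (0.0655 to 0.141). Pik3cb did not pass, at 132.4 CPM on average in NF1, 102.0 in LTR and 77.0 in NSC. Of 14 effectors tested, 2 rose and 1 fell in each line.

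Ras proteins need lipid anchors, and of 12 genes for their attachment and turnover 2 rose and 2 fell in each line. Icmt, which methylates the farnesylated end of Ras, rose to 78.5 ± 18.0 CPM in NF1 (0.97 ± 0.20, adjusted p = 0.0102) and 80.3 ± 6.0 in LTR (1.00 ± 0.20, adjusted p = 0.00645), against 40.2 ± 2.3 CPM in NSC. Zdhhc9, a palmitoyltransferase for Hras and Nras proteins, fell to 30.9 ± 4.8 CPM in NF1 (-0.84 ± 0.18, adjusted p = 0.0120) and 22.6 ± 1.8 in LTR (-1.29 ± 0.18, adjusted p = 0.00171), against 55.2 ± 1.6 CPM in NSC. Both were clear of the NSC range in every tumour culture. In NF1 the Icmt call was lost without NSC 1 (adjusted p = 0.0508) and the Zdhhc9 call without NF1 1 (0.0512). Abhd17a, a depalmitoylating enzyme, rose (0.70 ± 0.22, adjusted p = 0.0495 in NF1, and 0.89 ± 0.22, adjusted p = 0.0150 in LTR), a call lost without NSC 1 or NSC 5 in LTR (0.0655 to 0.0681) and without any library but NSC 3, LTR 2 and NF1 2 in NF1 (0.0636 to 0.177). Fntb, a farnesyltransferase subunit, fell in NF1 (-0.61 ± 0.18, adjusted p = 0.0409), a call lost without any library but NF1 2 (0.0627 to 0.144). Lypla1, another depalmitoylating enzyme, did not pass (adjusted p = 0.216 in NF1 and 0.126 in LTR) but did so without NF1 2 (0.00988 in NF1 and 0.0194 in LTR).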

How the data were processed

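Per the labels' protocols, RNA of 3 cultures each of NF1, LTR and NSC was purified on RNeasy Plus columns and sequenced from NEBNext Ultra RNA libraries, which do not mark the strand, so reads of overlapping genes cannot be told apart. The authors deposited raw, unscaled counts for each gene. STAR 2.5.2a, HTSeq and DESeq2 1.8.2 are named in the submitters' processing notes, with GRCm38 and mm10. How reads were assigned to genes, and the annotation release, is not given there.

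Coordinates, merged exon lengths and GC content came from GENCODE M21 (GRCm38), which holds 47310 of the 47729 identifiers. Promoters came from RefSeq (GRCm38.p6), where all 8 members matched by symbol. The counts were fitted with edgeR 4.0.16 in R 4.3.3: 1 model of 3 groups over 9 libraries, TMM scaling, filterByExpr with a minimum count of 10, the quasi-likelihood F test and Benjamini-Hochberg adjustment over 15696 genes, with a threshold of 0.05. The SE was derived from the F statistic. The p-values rest on the spread between cultures of the same label, pooled over all 3 labels. A library of a label outside a comparison thus still enters its test. Total counts of 28600479 to 57231024 put each member at 937 or more counts in every library. No library was a copy of another. The most alike were NSC 1 and NSC 5, with a correlation of log CPM of 0.991. NSC 3 correlated with NSC 1 at 0.958 and with NSC 5 at 0.953. The code was tested on simulated data.

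Alternatives were DESeq2 1.42.0, limma-voom (limma 3.58.1), 3 other scalings, 2 other filters, a fit of only the 6 libraries compared, a replicate block, a GC content correction (GC known for 15654 tested genes), and leaving out each library, or NSC 3 with NF1 2. The members and gene lists were chosen with earlier results of these data known. Of each list the text names up to 3 genes per comparison with the smallest adjusted p and the most abundant gene that passed nowhere. A few genes that this rule or the marker and profile lists would name are not reported here.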

Additional observations from a re-analysis of the deposited data

How the results depend on the processing

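Over 20 alternatives, the log2 fold changes of the 8 members in the 3 comparisons kept direction and side of the threshold in 411 cases, lost a call in 29, gained one in 20 and changed sign in 20. Rasa3 and Dab2ip in LTR kept their calls throughout. The genes passing in LTR against NSC numbered 5634, 3477 with the replicate block and 3281 to 7640 with 1 library left out (3281 without NSC 1, 3452 without NSC 5, 3651 without LTR 3) and 8018 without NSC 3 and NF1 2, and the members passing 4, 2 with the replicate block and 2 to 6 with 1 library left out (2 without NSC 1). In NF1 against NSC the genes passing numbered 3631, 2103 with a filter of 10 CPM in 3 libraries, 1942 with the replicate block, 1752 to 6900 with 1 library left out (1752 without NSC 1, 1857 without NSC 5, 1898 without NF1 1, 2373 without NF1 3, 6900 without NF1 2) and 7485 without NSC 3 and NF1 2. The members passing there were 3, 5 by DESeq2, 1 with the 10 CPM filter, 1 with the replicate block, 0 to 6 with 1 library left out (0 without NSC 1, NSC 5 or NF1 1, 6 without NF1 2) and 6 without NSC 3 and NF1 2. In NF1 against LTR 0 genes passed, 330 by DESeq2, 1 by limma-voom, 52 with no filter, 0 to 34 with 1 library left out (34 without NF1 2) and 104 without NSC 3 and NF1 2, none of them members. Of the 57 pathway genes tested, 12 passed in NF1 against NSC, 7 with the 10 CPM filter, 6 with the replicate block and 29 without NSC 3 and NF1 2, and 21 passed in LTR against NSC, 12 with the replicate block. Sign changes touched small differences that did not pass. With 1 library left out, Nras ran from -0.080 to 0.067 in LTR against NSC and from -0.157 to 0.018 in NF1 against NSC, and was 0.016 in NF1 against NSC with only the 6 libraries compared. In NF1 against LTR, Nras took -0.0188 with DESeq2 size factors, -0.0246 with upper quartile scaling, -0.0209 with library totals, -0.0189 by DESeq2, -0.0077 with only the 6 libraries compared, -0.0098 with the GC correction and -0.113 to 0.056 with 1 library left out. Nf1 took -0.271 there without NSC 3 and NF1 2, and -0.259 to 0.411 with 1 library left out, and Rasa1 -0.156 to 0.242. The cause of these changes was not tested. A pairing of the libraries by replicate number was not seen. Correlations of same-numbered deviations ran from -0.185 to 0.121, and those of other pairs from -0.135 to 0.133. With deviations taken from means of 3 cultures, a weak pairing could be missed. The block ended the calls of Hras and Rasa2 in NF1 (adjusted p = 0.135 for Hras and 0.175 for Rasa2) and of Rasa2 and Rasal2 in LTR (0.0810 for Rasa2 and 0.114 for Rasal2). Number 5 occurs only in NSC, so with the block NSC 5 no longer informed the comparisons. Lost calls are thus not an effect of pairing alone. The smallest log2 fold change that passed among the members was 0.85, for Hras in NF1. With 3 cultures a group, larger ones were also lost with the block, Rasa2 (1.01) and Rasal2 (-1.23) in LTR. Dab2ip in LTR (-1.09) was kept.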
